A study of Homo sapiens with 12 samples.

Results

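The RNA that melanoma cells had made during 24 h of growth with 5-bromouridine was set against the total RNA of the same lines, to see which transcript classes and genes the labelled pool held more or less of. The 6 libraries compared, of 12 in the series, were chosen by their labels. They are the 2 bromouridine libraries collected at 0 h after labelling, 1 from A375 and 1 from A375/211, and the 4 RNA-seq libraries of total RNA, 2 from each line (a and b). A375 is an established BRAF-mutant human melanoma cell line, and A375/211 is its derivative that overexpresses the microRNA gene MIR211; the labels give no vector, promoter or number of clones for it. The labelled cells had bromouridine in their medium for 24 h and the cells for total RNA did not, per the labels, so effects of the nucleoside on the cells and enrichment of labelled RNA cannot be told apart. The antibody pull-down, the separate count tables, the depth and any difference in library preparation also go with the pool. For every class and gene below, these cannot be told apart from the age of the RNA. Each labelled pool is 1 library, so the 2 lines stand in for its replicates. Nothing in the labels says that libraries a and b came from separate cultures, and p-values measure only the spread between these libraries.

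Bromouridine is taken up by cells, converted to the triphosphate and built into new RNA in place of uridine. An antibody against bromouridine then pulls down the RNA made during the labelling period, and its decay can be followed after the label is withdrawn (BRIC-seq). A pool labelled in this way can hold proportionally more of transcripts that are made and lost quickly than total RNA does, and less of RNA that was already present and is long-lived. Transcription by RNA polymerase II makes messenger RNA and most long non-coding RNA (lncRNA). RNA polymerase III makes small structural RNAs such as 7SK and 7SL, and the mitochondrion has its own polymerase, which transcribes its genome into long precursors.

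Sequences of 6 RNAs are shown because they mark the ends of the comparison and differ in how many positions can take up the label. Each is given 5′ to 3′ from the reference transcripts of GENCODE 44 (hg38), with every T, the position of a uridine, in capitals. For the 2 lowest and 2 highest mRNAs among those that could be assigned to 1 gene (defined below) and had at least 10 counts in every library, 90 bases from the middle of the coding sequence are shown. The mitochondrial tRNA with the highest ratio and the RNA component of RNase MRP are shown whole.
RMRP: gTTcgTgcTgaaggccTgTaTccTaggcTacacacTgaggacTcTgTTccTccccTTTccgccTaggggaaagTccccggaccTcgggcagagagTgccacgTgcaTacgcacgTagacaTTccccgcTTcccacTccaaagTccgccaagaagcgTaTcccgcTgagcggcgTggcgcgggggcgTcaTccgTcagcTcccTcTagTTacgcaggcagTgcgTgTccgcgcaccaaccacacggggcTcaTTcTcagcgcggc
H1-3: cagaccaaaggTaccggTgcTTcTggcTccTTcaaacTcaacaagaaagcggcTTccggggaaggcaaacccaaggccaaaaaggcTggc
VGF: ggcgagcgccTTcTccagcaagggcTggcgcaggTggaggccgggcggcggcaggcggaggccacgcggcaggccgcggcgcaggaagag
EDA2R: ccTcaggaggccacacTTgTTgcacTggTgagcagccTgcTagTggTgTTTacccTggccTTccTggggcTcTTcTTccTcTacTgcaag
SORBS2: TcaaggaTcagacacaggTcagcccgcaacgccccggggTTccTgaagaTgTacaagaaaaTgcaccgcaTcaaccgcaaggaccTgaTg
MT-TR: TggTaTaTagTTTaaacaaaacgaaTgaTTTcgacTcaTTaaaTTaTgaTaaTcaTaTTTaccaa
RMRP lies on chromosome 9, positions 35657754 to 35658017, minus strand, and 18.9% of its bases were T. The H1-3 gene (chromosome 6, positions 26234212 to 26234987, minus strand) and the VGF gene (chromosome 7, positions 101162509 to 101165569, minus strand) had 16.1% and 12.7% T over the whole transcript. EDA2R (chromosome X, positions 66595637 to 66639298, minus strand) had 28.5%, and SORBS2 (chromosome 4, positions 185585444 to 185956652, minus strand) had 24.4%. MT-TR (mitochondrial genome, positions 10405 to 10469, plus strand) had 35.4%. In these windows H1-3 and SORBS2, which lay at opposite ends of the comparison, held the same number of T, 12 of 90.

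The labelled libraries held 2671651 and 2783520 counts and the total RNA libraries 20847481 to 34130525. Across 21863 genes, log2 CPM (CPM, counts per 1000000 counts after TMM scaling) correlated at r = 0.888 between the 2 labelled libraries, at 0.956 to 0.981 among total RNA libraries and at 0.545 to 0.574 between the pools. MIR211 itself was at 0 CPM in the 3 A375 libraries and at 2.9, 1.11 and 0.616 CPM in the A375/211 libraries, which matches the labels. Melanocyte markers summed to 411 to 433 CPM in labelled and 1338 to 1651 CPM in total RNA. Keratinocyte, fibroblast, leukocyte and endothelial markers each summed to at most 81.5 CPM in any library, and 3 of 6 keratinocyte and 3 of 6 leukocyte markers were at 0 in all 6 libraries. Of the 14 melanocyte markers, MLANA was near 0 in total RNA, with at most 0.257 CPM.

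Antisense genes and genes with close copies differed between the tables in ways that bear on how counts were assigned. TUBA1B-AS1, an antisense neighbour of the tubulin gene TUBA1B, had 53.8 to 62.2 counts per 100 counts of TUBA1B in all 8 bromouridine libraries (0 to 6 h, both lines) and 0.0230 to 0.0496 in the 4 total RNA libraries. HMGA2-AS1 had 50.6 and 68.8 counts per 100 counts of HMGA2 in the labelled 0 h libraries and at most 0.101 in total RNA. The pseudogene ANKRD36BP1, which shares sequence with other genes, stood at 90.9 and 125 CPM in labelled RNA and at 0 in all total RNA libraries. The settings for strand and multiple matches in each table are not stated, so for such genes the counting and the RNA pool cannot be told apart. A gene is therefore called attributable below if it is nuclear and shares under 5% of its 50-base words with any other gene in either orientation. Its exons must also overlap no exon of a protein-coding gene on either strand, and it must not lie within an intron of one. This definition was made after these differences were seen, and 8890 of the 21863 genes tested meet it.

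The labelled pool differed from total RNA at most genes tested. By edgeR's quasi-likelihood test with line as a factor, 6288 genes were higher in labelled RNA (28.8%) and 7572 were lower (34.6%) at a Benjamini-Hochberg adjusted p under 0.05. Among attributable genes alone, 2156 were higher (24.3%) and 3058 were lower (34.4%). The median log2 difference over all genes tested was -0.24, and 44.6% of them differed more than 4-fold in either direction. Both labelled libraries lay above all 4 total RNA libraries at 7166 genes (32.8%) and below them at 8901 genes (40.7%). Fitted in each line alone, 4074 genes were higher and 5269 were lower in both lines, and 82 passed in opposite directions. Calls were 23.9% higher and 29.6% lower in A375 alone, and 22.9% higher and 28.5% lower in A375/211 alone. With other scalings the median of all genes lay between -0.24 and 0.10, so differences of that size are not read as a direction.

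Mitochondrially encoded RNA took a far larger share of the labelled libraries. Mitochondrial mRNAs made up 13.6% of the counts in labelled A375 RNA and 9.71% in labelled A375/211 RNA, against 0.489% to 0.651% in total RNA. The 2 mitochondrial ribosomal RNAs made up 8.50% and 8.26%, against 0.0525% to 0.168%. Mitochondrial tRNAs rose from at most 0.000916% to 0.0907% and 0.0823%. All 13 mRNAs, both ribosomal RNAs and all 22 tRNAs of the mitochondrial genome were higher in the labelled pool. Nuclear copies of mitochondrial genes, whose sequence resembles theirs, also took more of it, with 3.53% and 2.27% of counts against 0.154% to 0.216%, and 38 of the 47 tested were higher.

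**Figure D1:**
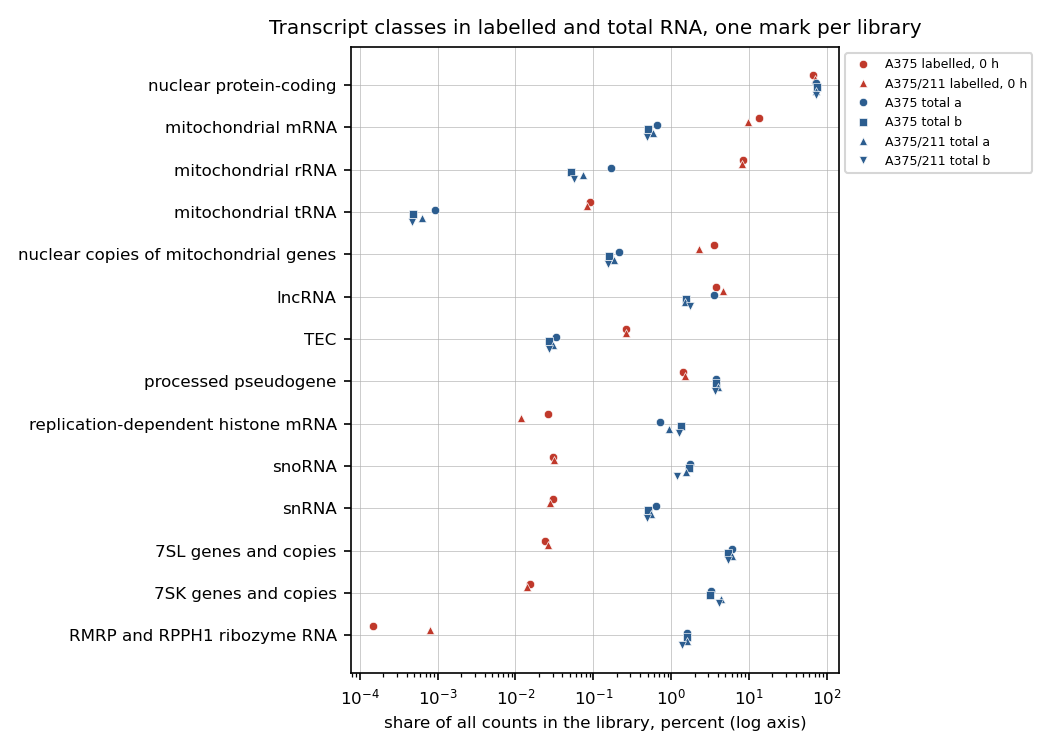
Share of all counts (percent, log axis) that each transcript class took in each of the 6 libraries; red marks are labelled 0 h RNA, blue marks total RNA, and TEC is GENCODE's class of transcripts of uncertain type. Mitochondrial RNA classes lie to the right in the labelled libraries and small structural RNAs and histone mRNAs to the left, with no overlap between the pools in these classes.

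Within the mitochondrial genome the size of the difference varied. MT-RNR2, the large ribosomal RNA of the mitochondrial ribosome, was at 69384 CPM in labelled A375 RNA and 66227 CPM in labelled A375/211 RNA, against 1654 and 498 CPM in A375 total RNA and 701 and 536 CPM in A375/211 total RNA (log2 difference 6.39, SE 0.52, adjusted p = 0.000274). MT-ND1, a subunit of respiratory complex I, was at 5879 and 3809 CPM in labelled A375 and A375/211 RNA, against 56.1, 35.8, 37.5 and 31.5 CPM in the total RNA libraries (log2 difference 6.90, SE 0.25, adjusted p = 7.64e-05). Both were higher in each labelled library than in any total RNA library by a wide margin. MT-ND2, another complex I subunit, was at 6662 and 4549.9 CPM in labelled A375 and A375/211 RNA, against 46.3, 27, 27.8 and 28.8 CPM in the total RNA libraries (log2 difference 7.42, SE 0.27, adjusted p = 7.91e-05). MT-ND6, the only mRNA encoded on the light strand of the mitochondrial genome, was at 1721 and 1587 CPM in labelled A375 and A375/211 RNA, against 17.1, 8.79, 9.97 and 8.9 CPM in the total RNA libraries (log2 difference 7.23, SE 0.31, adjusted p = 0.000105). The 4 smallest log2 differences of the 13 mRNAs were those of the cytochrome oxidase mRNAs MT-CO1, MT-CO2 and MT-CO3, at 3.75, 2.77 and 1.39, and of the complex I mRNA MT-ND3, at 1.78. MT-CO1 was at 41996 and 23607 CPM in labelled A375 and A375/211 RNA, against 2989, 2065, 2491 and 1927 CPM in the total RNA libraries (log2 difference 3.75, SE 0.25, adjusted p = 0.000168). MT-CO3 was at 6643 and 4989.7 CPM in labelled A375 and A375/211 RNA, against 2377, 2152, 2265 and 2028 CPM in the total RNA libraries (log2 difference 1.39, SE 0.16, adjusted p = 0.000775). Of the 50-base words, 49.5% in MT-CO1, 30.6% in MT-CO3, 17.9% in MT-ND6 and 3.54% in MT-ND4 occur in another gene, and the part of this sharing in the differences was not tested. MT-ND4 stood at 22843 and 19075 CPM in labelled A375 and A375/211 RNA, against 1.08, 120.4, 118 and 113 CPM in the total RNA libraries (log2 difference 7.999), with library a of A375 far below the other 3 total RNA libraries. Among the tRNAs, MT-TR, which carries arginine, was at 44.8 and 60.9 CPM in labelled A375 and A375/211 RNA, against 0.0515, 0.0374, 0.0929 and 0.137 CPM in the total RNA libraries (log2 difference 9.27, SE 0.30, adjusted p = 6.55e-05). Its values in total RNA rested on few counts.

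Small structural RNAs took a far smaller share of the labelled libraries. Of the 32 on the list that were tested, 0 were higher and 28 were lower (median log2 difference -9.81). The shares over all genes tested were 28.8% higher and 34.6% lower. RNAs of the 7SL genes and copies, the scaffold of the signal recognition particle, took 0.0243% and 0.0265% of the labelled counts against 5.32% to 6.04% of the total RNA counts. The 7SK genes and copies, which hold the elongation factor P-TEFb in check, took 0.0152% and 0.0140% against 3.17% to 4.38%. SnoRNAs, many of which guide the modification of ribosomal RNA, took 0.0307% and 0.0313% against 1.18% to 1.76%. The U3 genes weighed heavily in this sum. SNORD3C alone held 113257 of the 366615 snoRNA counts in library a of A375 total RNA, and 0 in both labelled libraries. Spliceosomal snRNAs took 0.0306% and 0.0281% against 0.486% to 0.632%.
Many of these genes have near-identical copies, but RMRP, shown above, is attributable. It stood at 0.674 CPM in labelled A375 RNA and 0.967 CPM in labelled A375/211 RNA, against 10374 and 10919.8 CPM in A375 total RNA and 10352 and 9159.9 CPM in A375/211 total RNA (log2 difference -13.58, SE 0.32, adjusted p = 3.66e-05). The labelled values are 2 and 3 counts. SNORD3A, a U3 snoRNA gene with close copies, had 0 counts in both labelled libraries and 3701, 4100.0, 3331 and 3378 CPM in the total RNA libraries, at least 7291-fold lower when 3 counts over both labelled libraries are taken as the floor. Single genes and copies of these families did not all go the way of the summed shares. Of 78 tested 7SL genes and copies 38 were higher and 30 were lower (median 1.48), and of 51 for 7SK 20 were higher and 27 were lower (median -4.99). SnoRNAs had 27 higher and 83 lower of 190 (median -1.66), and snRNAs 15 higher and 58 lower of 78 (median -7.54). Among attributable genes, all 11 snRNAs were lower (median -8.73), 7SL had 2 higher and 12 lower of 16 (median -7.23), 7SK had 7 higher and 11 lower of 18 (median -6.74), and snoRNAs had 3 higher and 3 lower of 9 (median 0.82).

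Replication-dependent histone mRNAs, which end in a stem-loop in place of a poly(A) tail and are made in S phase, were the mRNA group with the lowest ratios among the 34 lists examined. Of the 61 tested, 0 were higher and 60 were lower (median -7.31), and of the 31 attributable ones 30 were lower. The shares over all genes tested were 28.8% higher and 34.6% lower. H1-4, a linker histone, was at 2.69 and 1.93 CPM in labelled A375 and A375/211 RNA, against 569, 759, 668 and 765 CPM in the total RNA libraries (log2 difference -8.22, SE 0.33, adjusted p = 9.56e-05). H1-3, shown above, was at 6.74 and 3.54 CPM in labelled A375 and A375/211 RNA, against 358, 665, 537 and 667 CPM in the total RNA libraries (log2 difference -6.76, SE 0.50, adjusted p = 0.000221). H4C5, a core histone gene that is attributable, was at 3.7 and 5.48 CPM in labelled A375 and A375/211 RNA, against 228, 311, 249.6 and 295 CPM in the total RNA libraries (log2 difference -5.88, SE 0.31, adjusted p = 0.000115). In all 3 the pools did not overlap. H3C7 had no count in labelled RNA and 92.7 to 166 CPM in total RNA, at least 279-fold lower. Total RNA library a of A375 had the lowest histone share of the 4, 0.731% against 0.952% to 1.33%, and CCNB1 and MCM5, described below, had their lowest total RNA levels in it too.

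LncRNAs took 3.81% and 4.67% of labelled counts against 1.51% to 1.75% in 3 total RNA libraries and 3.59% in library a of A375. Of 3132 tested, 1683 were higher in labelled RNA and 367 were lower (median 1.99), beside 28.8% higher and 34.6% lower over all genes tested. Position relative to protein-coding genes went with the ratio. LncRNAs that neither overlap an exon of a protein-coding gene nor lie inside an intron of one had a median of 0.94, with 498 of 1223 higher. Those inside an intron on the same strand had a median of 3.69, with 239 of 282 higher, and those inside an intron of the opposite strand 4.03, with 140 of 204 higher. Where over 50% of a lncRNA's words were complementary to another gene the median was 6.61 (232 of 296 higher), against 2.05 (614 of 1124 higher) where none were. Among the 890 attributable lncRNAs, 366 were higher and 137 were lower, and the median was 0.96. Transcripts of uncertain type (GENCODE's class TEC) went the same way, with 46 of 69 attributable ones higher (median 3.29).

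Nuclear lncRNAs included large differences. Of the 16 on this list that were tested, 10 were higher and 2 were lower (median 1.63), beside 28.8% and 34.6% over all genes tested. Only 4 of them are attributable, of which 2 were higher and 1 was lower. NEAT1, the scaffold of paraspeckles, was at 1916 CPM in labelled A375 RNA and 3099 CPM in labelled A375/211 RNA, against 103 and 85.7 CPM in A375 total RNA and 153 and 156 CPM in A375/211 total RNA (log2 difference 4.34, SE 0.15, adjusted p = 7.52e-05). MALAT1, an abundant RNA of nuclear speckles, was at 6814 CPM in labelled A375 RNA and 12646 CPM in labelled A375/211 RNA, against 1247 and 744 CPM in A375 total RNA and 1475 and 1393 CPM in A375/211 total RNA (log2 difference 2.96, SE 0.24, adjusted p = 0.000268). NEAT1 is attributable, and MALAT1 is not, with 83.7% of its words complementary to another gene. Both labelled libraries lay above every total RNA library for both RNAs. PVT1, a lncRNA encoded next to MYC, was at 68.7 and 67.3 CPM in labelled A375 and A375/211 RNA, against 6.9, 8.12, 9.69 and 8.08 CPM in the total RNA libraries (log2 difference 3.06, SE 0.19, adjusted p = 0.000146). FTX, a non-coding gene of the X-inactivation centre, was at 58.6 and 56.4 CPM in labelled A375 and A375/211 RNA, against 3.24, 3.18, 4.12 and 3.8 CPM in the total RNA libraries (log2 difference 4.01, SE 0.19, adjusted p = 0.000109). FTX is not attributable, and 44.5% of its words are complementary to another gene. LINC01060, an attributable lncRNA, was at 344 and 295 CPM in labelled A375 and A375/211 RNA, against 29.9, 23.6, 35.7 and 29.1 CPM in the total RNA libraries (log2 difference 3.44, SE 0.20, adjusted p = 0.000138). KCNQ1OT1, an antisense RNA of an imprinted domain, was at 127 and 315 CPM in labelled A375 and A375/211 RNA, against 18, 19.1, 23 and 31.9 CPM in the total RNA libraries (log2 difference 3.17, SE 0.24, adjusted p = 0.000222), and its strand assignment is uncertain in the way described above. The 2 lower members were CRNDE at -1.83 and the telomerase RNA TERC, which was at 0 in labelled RNA and at 54.9, 9.09, 0.155 and 0 CPM in total RNA. For TERC the pools thus overlapped at 0 in A375/211. Only 1 member of the list was lower under DESeq2, and 1 in each line alone.
LncRNAs that host snoRNAs in their introns had lower ratios. Of the 21 tested, 1 was higher and 13 were lower (median -1.23), beside 28.8% higher and 34.6% lower over all genes tested. SNHG8 was at 6.74 and 8.05 CPM in labelled A375 and A375/211 RNA, against 102, 93, 118 and 106 CPM in the total RNA libraries (log2 difference -3.82, SE 0.20, adjusted p = 0.000115). GAS5 was at 132 and 126 CPM in labelled A375 and A375/211 RNA, against 432, 299.8, 311 and 197 CPM in the total RNA libraries (log2 difference -1.23, SE 0.29, adjusted p = 0.0111). SNHG14, which spans a long imprinted domain, was the 1 member that was higher, with a log2 difference of 1.997.

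Among nuclear protein-coding genes, 2864 of 13753 were higher and 5550 were lower (median -0.52). In the labelled libraries they took 66.5% and 70.8% of counts, and 71.9% to 74.3% in total RNA. With mitochondrially encoded RNA left out of the totals, the log2 ratio of these shares changed sign, from -0.09 to 0.23. Of the 7344 attributable ones, 1586 were higher and 2787 were lower (median -0.43). The named transcripts below are shown library by library in the plot of CPM values.

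**Figure D2:**
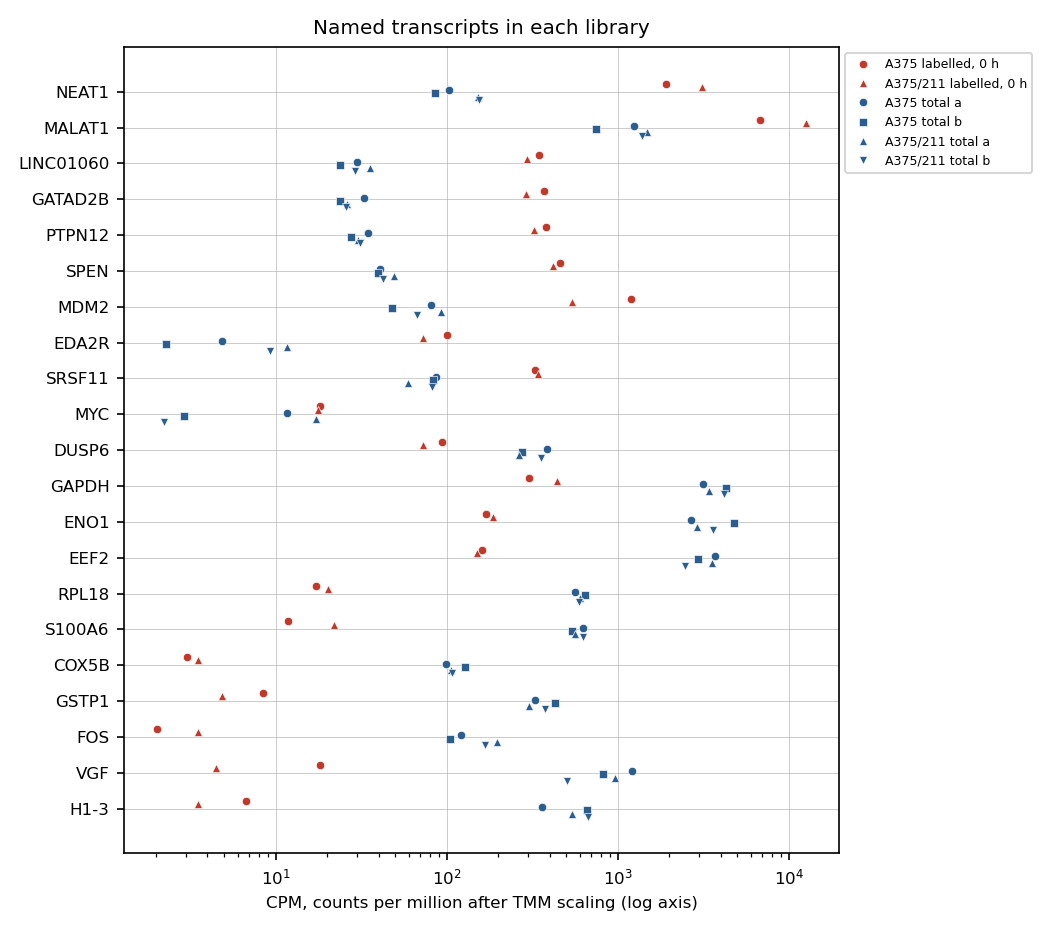
CPM after TMM scaling (log axis) of 21 named transcripts in each of the 6 libraries, red for labelled 0 h RNA and blue for total RNA. From NEAT1 to SRSF11 and from DUSP6 to H1-3 the labelled and total RNA libraries do not overlap; MYC in labelled RNA lies only just above the highest total RNA library.

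The mRNAs with the highest ratios encode proteins of several kinds. GATAD2B, a subunit of the NuRD chromatin complex, was at 371 CPM in labelled A375 RNA and 290.0 CPM in labelled A375/211 RNA, against 33.1 and 23.7 CPM in A375 total RNA and 26.1 and 25.7 CPM in A375/211 total RNA (log2 difference 3.60, SE 0.19, adjusted p = 0.000115). Each of its labelled libraries lay far above all 4 total RNA libraries. SPEN, a transcriptional repressor that binds RNA, was at 457 and 419 CPM in labelled A375 and A375/211 RNA, against 40.9, 39.5, 49.3 and 42.5 CPM in the total RNA libraries (log2 difference 3.35, SE 0.16, adjusted p = 0.000109). PTPN12, a tyrosine phosphatase, was at 382 and 322 CPM in labelled A375 and A375/211 RNA, against 34.6, 27.7, 30.5 and 31 CPM in the total RNA libraries (log2 difference 3.50, SE 0.16, adjusted p = 0.000109). GLI3, a transcription factor of hedgehog signalling, was at 142 and 197 CPM in labelled A375 and A375/211 RNA, against 15.2, 11.6, 21.8 and 21.5 CPM in the total RNA libraries (log2 difference 3.30, SE 0.18, adjusted p = 0.000117). These 4 genes are attributable, and each had at least 11.6 CPM in every total RNA library.
ZFHX3, a large homeobox transcription factor, was at 161 and 159 CPM in labelled A375 and A375/211 RNA, against 12.4, 8.86, 9.75 and 8.08 CPM in the total RNA libraries (log2 difference 4.04, SE 0.20, adjusted p = 0.000113). NFAT5, the transcription factor of the response to osmotic stress, was at 191 and 356 CPM in labelled A375 and A375/211 RNA, against 15, 21.4, 17.8 and 17.6 CPM in the total RNA libraries (log2 difference 3.89, SE 0.27, adjusted p = 0.000188). Transcripts of RFX7, SRRM2, SCAF4, SLITRK5 and ZFHX4 had log2 differences of 3.78, 3.62, 3.33, 3.41 and 3.50. ZFHX3, NFAT5, RFX7 and SRRM2 are not attributable, while SCAF4, SLITRK5 and ZFHX4 are. SORBS2, a cytoskeletal adaptor, differed between the lines in its labelled level, with 98 and 320.3 CPM in labelled A375 and A375/211 RNA, against 16.9, 19.1, 10.7 and 9.62 CPM in the total RNA libraries (log2 difference 3.90, SE 0.56, adjusted p = 0.00182). A pair of secreted proteins stood out because they were near 0 in total RNA. COL5A1, a fibrillar collagen chain, was at 112 and 97.3 CPM in labelled A375 and A375/211 RNA, against 0, 0.785, 0.433 and 0 CPM in the total RNA libraries (log2 difference 8.35, SE 0.93, adjusted p = 0.000741). HGF, the ligand of the MET receptor, was at 279 and 48.6 CPM in labelled A375 and A375/211 RNA, against 0, 0.112, 3.07 and 3.83 CPM in the total RNA libraries (log2 difference 7.66, SE 1.69, adjusted p = 0.00888). For both, the log2 difference rests on total RNA values of few counts, and the 2 labelled values of HGF differ widely.

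The lists of housekeeping mRNAs described here each had a median below that of all genes tested, although some members were higher. The shares over all genes tested were 28.8% higher and 34.6% lower. Of the 13753 nuclear protein-coding genes 2864 were higher and 5550 were lower (median -0.52). Of the 83 cytosolic ribosomal protein mRNAs tested, 0 were higher and 81 were lower (median -3.81), and of the 15 attributable ones 13 were lower (median -3.68). RPL18, attributable, was at 17.2 and 20.3 CPM in labelled A375 and A375/211 RNA, against 561, 646, 603 and 594 CPM in the total RNA libraries (log2 difference -5.004, SE 0.21, adjusted p = 0.000102). RPL19 was at 64 and 55.4 CPM in labelled A375 and A375/211 RNA, against 1614, 1651, 1596 and 1459 CPM in the total RNA libraries (log2 difference -4.73, SE 0.19, adjusted p = 9.56e-05). Their labelled values lay within a narrow band in both lines, far below all total RNA libraries. Of the 27 translation factors, 2 were higher and 21 were lower (median -1.77). EEF2, which moves the ribosome along the mRNA, was at 162 and 149 CPM in labelled A375 and A375/211 RNA, against 3718, 2941, 3544 and 2475 CPM in the total RNA libraries (log2 difference -4.35, SE 0.26, adjusted p = 0.000146). EEF1A2, an elongation factor isoform, had no count in either labelled library, and 252, 296, 99.8 and 93.3 CPM in total RNA, at least 353-fold lower.
Energy metabolism showed the same direction, beside 28.8% higher and 34.6% lower over all genes tested. Of the 17 glycolysis genes, 0 were higher and 15 were lower (median -2.55). GAPDH was at 302 and 441 CPM in labelled A375 and A375/211 RNA, against 3146, 4308, 3393 and 4184 CPM in the total RNA libraries (log2 difference -3.36, SE 0.27, adjusted p = 0.000261). ENO1, attributable, was at 169 and 188 CPM in labelled A375 and A375/211 RNA, against 2685, 4781, 2905 and 3599.6 CPM in the total RNA libraries (log2 difference -4.29, SE 0.34, adjusted p = 0.000269). No labelled value of either gene reached the lowest total RNA value. Of the 36 nuclear-encoded subunits of oxidative phosphorylation, 0 were higher and 33 were lower (median -2.49), while all 13 mitochondrially encoded mRNAs, which code for partners in the same complexes, were higher. COX5B, a nuclear-encoded subunit of cytochrome oxidase, was at 3.03 and 3.54 CPM in labelled A375 and A375/211 RNA, against 98.8, 129, 106 and 107 CPM in the total RNA libraries (log2 difference -5.06, SE 0.26, adjusted p = 0.000115). Of the 78 mitochondrial ribosomal proteins, 2 were higher and 62 were lower (median -2.36), while both RNAs of that ribosome were higher.
Of the 27 proteasome subunits, 0 were higher and 21 were lower (median -1.25), with PSMD8 at 14.8 and 11.9 CPM in labelled A375 and A375/211 RNA, against 229.7, 269, 235 and 250.3 CPM in the total RNA libraries (log2 difference -4.20, SE 0.21, adjusted p = 0.000113). Of the 28 genes of translocation and folding in the endoplasmic reticulum, 1 was higher and 21 were lower (median -1.37), and of the 20 cholesterol synthesis genes 0 were higher and 18 were lower (median -1.79). Actin and tubulin genes had 0 higher and 9 lower of 12 (median -2.18). For all these lists the shares over all genes tested were 28.8% higher and 34.6% lower. ACTG1, cytoplasmic gamma-actin and attributable, was at 125 and 71.2 CPM in labelled A375 and A375/211 RNA, against 622, 690.1, 443 and 568 CPM in the total RNA libraries (log2 difference -2.60, SE 0.22, adjusted p = 0.000308). ACTB was at 151 and 723 CPM in labelled A375 and A375/211 RNA, against 727, 982, 992 and 1243 CPM in the total RNA libraries (log2 difference -1.46, SE 0.47, adjusted p = 0.0357), but it did not pass in 9 of 16 alternatives, among them total counts as scaling (log2 difference -1.21, adjusted p = 0.0610), thinned total RNA (-1.04, adjusted p = 0.0586) and the fit without the labelled A375 library (-0.69, adjusted p = 0.121). Other mRNAs among the lowest attributable ones were GSTP1, a glutathione transferase, at 8.42 and 4.83 CPM in labelled A375 and A375/211 RNA, against 329, 431, 304 and 374.6 CPM in the total RNA libraries (log2 difference -5.78, SE 0.31, adjusted p = 0.000118), and S100A6, a calcium-binding protein, at 11.8 and 21.9 CPM in labelled A375 and A375/211 RNA, against 628, 537, 559 and 625 CPM in the total RNA libraries (log2 difference -5.15, SE 0.30, adjusted p = 0.000138). VGF, a neuropeptide precursor shown above, was at 18.2 and 4.51 CPM in labelled A375 and A375/211 RNA, against 1216, 816, 965 and 508 CPM in the total RNA libraries (log2 difference -6.41, SE 0.59, adjusted p = 0.000403), and its 2 labelled values differed more from each other than those of S100A6.

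**Figure D3:**
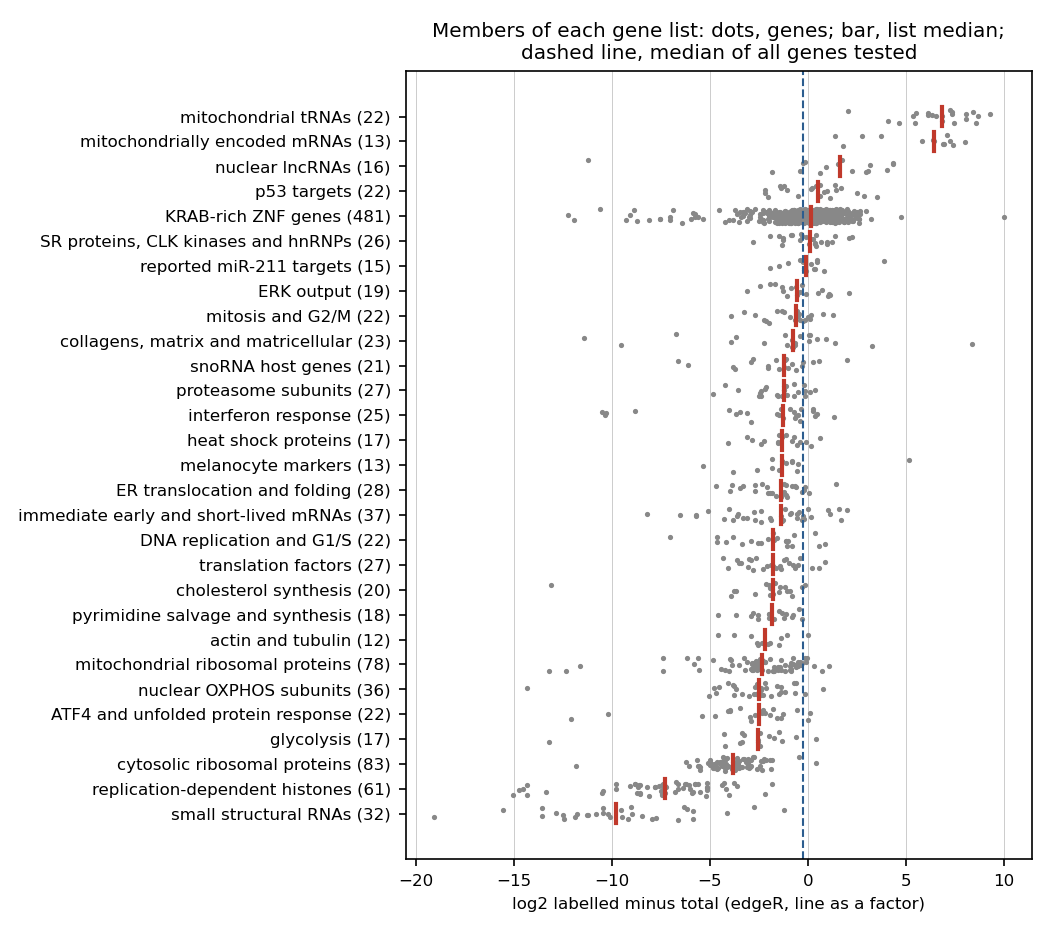
Log2 difference between labelled and total RNA for every tested member of the 29 lists with at least 12 tested genes (grey dots, number tested in brackets), with the list median (red bar) and the median of all genes tested (dashed line, -0.24). Mitochondrial tRNAs and mRNAs lie farthest to the right and small structural RNAs and histone mRNAs farthest to the left.

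The mRNAs listed as immediate early or short-lived were lower more often than higher. By measured chase slope (described below) the order was the other way. In the group with the fastest loss 453 of 1149 attributable mRNAs were higher and 176 were lower. The list's median GC content was 52.9%, and the part of GC content in its differences was not tested. Of the 37 immediate early and other short-lived mRNAs, 4 were higher and 21 were lower (median -1.38), and 7 had a log2 difference above 0. Over all genes tested, 28.8% were higher and 34.6% were lower. Of the 26 attributable ones on the list 3 were higher and 13 were lower (median -1.22). FOS, the AP-1 transcription factor, was at 2.02 and 3.54 CPM in labelled A375 and A375/211 RNA, against 121, 105, 196 and 167 CPM in the total RNA libraries (log2 difference -5.73, SE 0.25, adjusted p = 0.000105). JUNB, its dimer partner, was at 2.36 and 1.93 CPM in labelled A375 and A375/211 RNA, against 200.2, 150.3, 249 and 202 CPM in the total RNA libraries (log2 difference -6.53, SE 0.33, adjusted p = 0.000113). DUSP1, a MAP kinase phosphatase, was at 2.69 and 2.9 CPM in labelled A375 and A375/211 RNA, against 61.4, 49.5, 43.4 and 33.3 CPM in the total RNA libraries (log2 difference -4.04, SE 0.31, adjusted p = 0.000248). All 3 were lower in each labelled library than in any total RNA library, and none of the 3 had a chase slope. EGR3, a growth-factor induced zinc finger factor, was higher, at 26.3 and 31.3 CPM in labelled A375 and A375/211 RNA, against 7.16, 5.65, 6.07 and 10.03 CPM in the total RNA libraries (log2 difference 1.997, SE 0.27, adjusted p = 0.00142). ZFP36L1 and ZFP36L2, which promote mRNA decay, were higher as well, at 1.56 and 1.04. MYC stood at 18.2 CPM in labelled A375 RNA and 17.7 CPM in labelled A375/211 RNA, against 11.7 and 2.92 CPM in A375 total RNA and 17.2 and 2.22 CPM in A375/211 total RNA, and its log2 difference of 1.10 did not pass (SE 0.88, adjusted p = 0.312). The 2 total RNA libraries named a were high for MYC and the 2 named b low.

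Of 22 tested targets of the p53 pathway, 9 were higher and 6 were lower (median 0.52), beside 28.8% higher and 34.6% lower over all genes tested. Of the 14 attributable ones 5 were higher and 5 were lower (median -0.14). MDM2, the ubiquitin ligase that degrades p53, was at 1189.9 CPM in labelled A375 RNA and 539 CPM in labelled A375/211 RNA, against 81.1 and 48 CPM in A375 total RNA and 92.4 and 67 CPM in A375/211 total RNA (log2 difference 3.54, SE 0.39, adjusted p = 0.000736). ZMAT3, an RNA-binding protein, was at 123 and 183 CPM in labelled A375 and A375/211 RNA, against 24.4, 8.68, 22.1 and 30.2 CPM in the total RNA libraries (log2 difference 2.85, SE 0.40, adjusted p = 0.00159). SESN1, a stress-response regulator of mTORC1, was at 125 and 64.4 CPM in labelled A375 and A375/211 RNA, against 13, 11.7, 18.9 and 26.2 CPM in the total RNA libraries (log2 difference 2.52, SE 0.42, adjusted p = 0.00312). EDA2R, a receptor of the TNF receptor family shown above, was at 101 and 73.1 CPM in labelled A375 and A375/211 RNA, against 4.89, 2.28, 11.7 and 9.27 CPM in the total RNA libraries (log2 difference 3.90, SE 0.53, adjusted p = 0.00146). Their labelled values lay above all total RNA values in both lines, and MDM2 is not attributable. BAX, an activator of apoptosis, was lower at 10.4 and 6.44 CPM in labelled A375 and A375/211 RNA, against 34.3, 33.3, 42 and 45.1 CPM in the total RNA libraries (log2 difference -2.18, SE 0.30, adjusted p = 0.00152). PHLDA3, which is not attributable, was lower as well (log2 difference -2.05, SE 0.19, adjusted p = 0.000382), with no overlap between the pools. ZMAT3, SESN1 and EDA2R were picked from the list after their values were seen. CDKN1A, the cell cycle inhibitor p21, was at 187 and 181 CPM in labelled A375 and A375/211 RNA, against 123, 89, 240.4 and 265 CPM in the total RNA libraries, and its difference of 0.22 did not pass (SE 0.33, adjusted p = 0.591). MDM2, ZMAT3, SESN1 and EDA2R have GC contents of 39.5%, 38.2%, 40.6% and 45.5%, and BAX has 60.8%. The part of GC content in these differences was not tested. Genes of the ATF4 and unfolded protein responses had 0 higher and 16 lower of 22 (median -2.52), with ATF4 itself at 27.3 and 25.8 CPM in labelled A375 and A375/211 RNA, against 508, 474, 483 and 339.7 CPM in the total RNA libraries (log2 difference -4.08, SE 0.25, adjusted p = 0.000141). Of 18 genes of pyrimidine salvage and synthesis, the pathway through which a uridine analogue enters RNA precursors, 0 were higher and 13 were lower (median -1.84).

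RNA-binding proteins of splicing and KRAB-rich zinc finger genes lay close to the middle. Of 26 SR proteins, CLK kinases and hnRNPs, 7 were higher and 8 were lower (median 0.12). Over all genes tested, 28.8% were higher and 34.6% were lower. HNRNPA2B1 was at 1428 and 1417 CPM in labelled A375 and A375/211 RNA, against 254, 334, 281 and 333 CPM in the total RNA libraries (log2 difference 2.24, SE 0.17, adjusted p = 0.000243). SRSF11 was at 327 and 342 CPM in labelled A375 and A375/211 RNA, against 86.5, 83.4, 59.1 and 81.9 CPM in the total RNA libraries (log2 difference 2.11, SE 0.19, adjusted p = 0.000358). HNRNPL was at 43.4 and 43.2 CPM in labelled A375 and A375/211 RNA, against 240.0, 356, 255 and 348 CPM in the total RNA libraries (log2 difference -2.79, SE 0.27, adjusted p = 0.000461). Members of the same family thus lay on both sides, each with no overlap between the pools. SRSF11 is attributable, and HNRNPA2B1 and HNRNPL are not. Of 481 zinc finger genes, 134 were higher and 97 were lower (median 0.15), and in A375/211 alone the medians of both lists were below 0, at -0.11 for the zinc fingers and -0.14 for the splicing proteins. Mitosis genes had 2 higher and 7 lower of 22 (median -0.61), a lower share near the 34.6% of all genes tested. Summed over that list, libraries a and b were at 1976 and 4313 CPM in A375 total RNA and at 3056 and 4685 CPM in A375/211 total RNA, so library a was below b in both lines. DNA replication genes had 0 higher and 13 lower of 22 (median -1.77), beside 28.8% higher and 34.6% lower over all genes tested. CCNB1, the mitotic cyclin, was at 36.7 and 31.6 CPM in labelled A375 and A375/211 RNA, against 121, 306, 186 and 291 CPM in the total RNA libraries (log2 difference -2.72, SE 0.47, adjusted p = 0.00366), lowest among total RNA libraries in library a of A375. MCM5, a subunit of the replicative helicase, was at 4.38 and 3.87 CPM in labelled A375 and A375/211 RNA, against 55.1, 135, 80.8 and 136 CPM in the total RNA libraries (log2 difference -4.62, SE 0.58, adjusted p = 0.0011).

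Melanocyte markers had 1 higher and 6 lower of 13 (median -1.35), beside 28.8% higher and 34.6% lower over all genes tested. CSPG4, a melanoma surface proteoglycan, was at 16.8 and 21.9 CPM in labelled A375 and A375/211 RNA, against 280.1, 203, 350.2 and 255 CPM in the total RNA libraries (log2 difference -3.81, SE 0.27, adjusted p = 0.000202). MITF, the lineage transcription factor, was at 67 CPM in labelled A375 RNA and 69.6 CPM in labelled A375/211 RNA, against 265 and 262 CPM in A375 total RNA and 40.8 and 51.9 CPM in A375/211 total RNA. Its total RNA differed between the lines while its labelled values were alike, and the pool difference of -0.52 did not pass (SE 0.59, adjusted p = 0.471). DUSP3, a phosphatase and reported MIR211 target, was at 26.3 CPM in labelled A375 RNA and 35.1 CPM in labelled A375/211 RNA, against 71 and 77.1 CPM in A375 total RNA and 15.8 and 10.9 CPM in A375/211 total RNA, with a difference of 0.16 (SE 0.66, adjusted p = 0.846). For both genes the labelled values lay between the total RNA values of the 2 lines. In A375 alone the log2 difference was -1.50 for DUSP3 and -1.98 for MITF. In A375/211 alone it was 1.39 for DUSP3 and 0.59 for MITF. The test of the line difference itself gave adjusted p = 0.226 for DUSP3 and 0.197 for MITF. Of 15 reported MIR211 targets, 2 were higher and 2 were lower (median -0.12), a median that was above 0 under the other scalings. DUSP6, a phosphatase of ERK and one of these 15, was at 93.6 and 73.1 CPM in labelled A375 and A375/211 RNA, against 387, 275, 265 and 356 CPM in the total RNA libraries (log2 difference -1.95, SE 0.24, adjusted p = 0.00112). Of 19 transcripts that report ERK output, 4 were higher and 7 were lower (median -0.55), beside 28.8% and 34.6% of all genes tested, with SPRED2, an inhibitor of the pathway, at 96.3 and 91.2 CPM in labelled A375 and A375/211 RNA, against 29.3, 22.5, 19.7 and 18.8 CPM in the total RNA libraries (log2 difference 2.07, SE 0.19, adjusted p = 0.000362).

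Transcript composition, length and persistence went with the ratio among the 7344 attributable nuclear mRNAs. These are descriptions across genes, which share libraries and depth and are not independent replicates. Spearman's rho of the log2 difference was -0.547 with GC content, 0.503 with uridine content and 0.513 with the length of the canonical transcript. Split into 5 equal groups by GC content, the mRNAs had median log2 differences of 0.36, 0.23, -0.10, -1.07 and -3.11 from the lowest to the highest. In the group highest in GC 40 of 1469 mRNAs were higher and 1167 were lower, while in the lowest 528 were higher and 186 were lower. In 5 equal groups by length the medians were -2.19, -1.08, -0.41, 0.15 and 0.74 from the shortest to the longest. Number of exons went with it less, at a rho of 0.197.

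**Figure D4:**
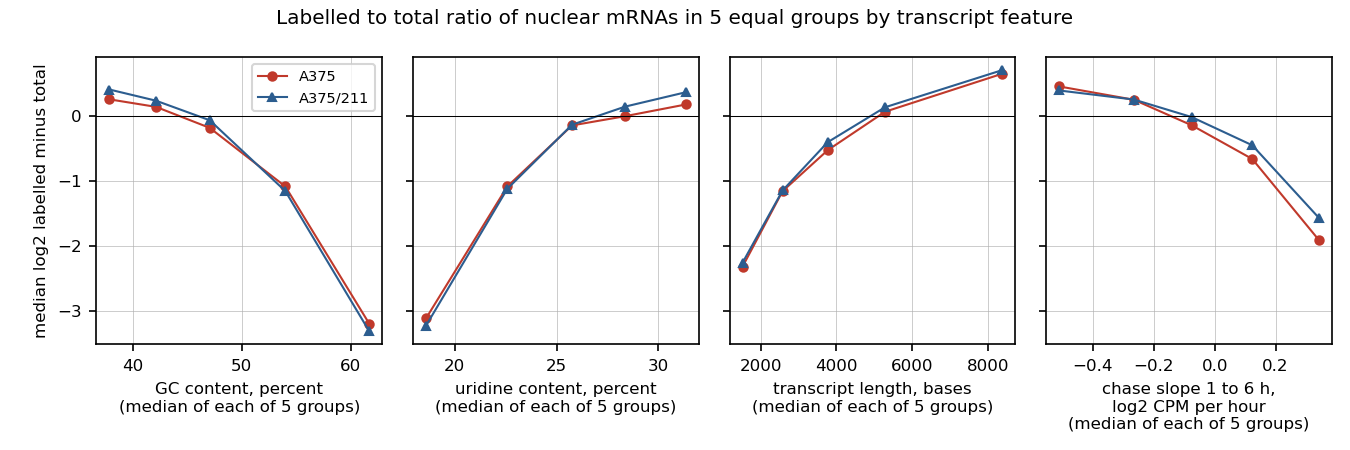
Median log2 difference between labelled and total RNA in 5 equal groups by GC content, uridine content, transcript length and chase slope among attributable nuclear mRNAs, drawn at the median of each group for A375 (circles) and A375/211 (triangles). The ratio falls with GC content and chase slope and rises with length in both lines, and from the middle group of uridine content upward it changes little.

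Persistence was taken from the bromouridine libraries collected 1, 3 and 6 h after labelling, none of which entered the comparison. The chase slope is the change in log2 CPM per hour over these times in both lines, so a positive slope marks an mRNA that outlasted the average one. Over 5745 mRNAs with a slope, rho with the labelled to total difference was -0.429. In 5 equal groups by slope the median difference was 0.42, 0.28, -0.06, -0.48 and -1.65 from the fastest to the slowest loss. GATAD2B had a slope of -0.58, SPEN of -0.21, PTPN12 of -0.21 and GLI3 of -0.30, against 0.54 for GSTP1 and 0.62 for S100A6. H1-3, DDIT4 and CCNE1 had slopes of -0.34, -0.42 and -0.30 and low ratios as well, with log2 differences of -6.76, -2.68 and -2.93. The order of the group medians thus did not hold for each mRNA.

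These features overlap, so each was also split into 3 equal groups within each of the 5 GC groups (numbered 1, lowest, to 5, highest). In every GC group the longest transcripts had a higher median than the shortest, from 0.85 against -0.27 in GC group 1 to -2.13 against -4.25 in GC group 5. Chase slope kept its order in every GC group as well, with 0.67 for the fastest loss against -0.0088 for the slowest in GC group 1, and -1.55 against -3.32 in GC group 5. Uridine content did not keep 1 order. In GC group 2 the median fell from 0.32 in the uridine-poorest mRNAs to 0.12 in the richest, and in GC group 3 from 0.11 to -0.21. In GC groups 1, 4 and 5 it rose with uridine content, in group 5 from -4.16 to -2.46. Median GC content still fell from the uridine-poorest to the richest mRNAs within each GC group, in group 5 from 64.7% to 59.7%. Uridine and GC content were thus not separated by this split.

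**Figure D5:**
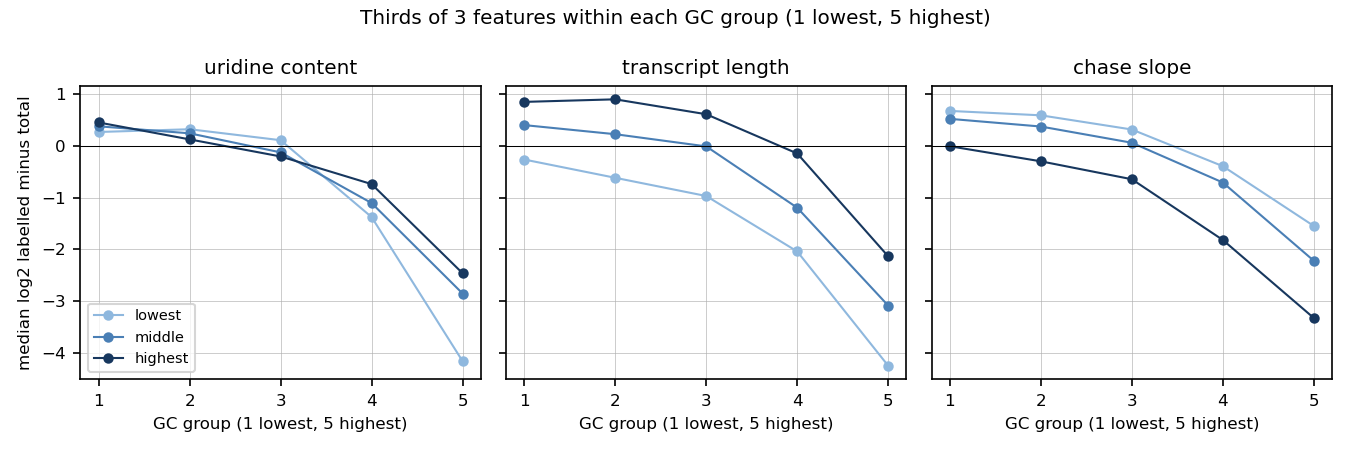
Median log2 difference between labelled and total RNA in 3 equal groups by uridine content, transcript length and chase slope (light to dark, lowest to highest) within each of 5 GC groups. Lines for length and chase slope keep their order across all 5 GC groups, while those for uridine content cross.

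Some mRNAs with ample counts in total RNA were not detected in labelled RNA. Of 3104 attributable mRNAs whose total RNA level predicted at least 200 counts over both labelled libraries, 28 had no count in either, and 65 had 1 to 10. The 28 had a median GC content of 63.4%, against 45.6% for all 3104. FKBP8, a chaperone of the mitochondrial surface, was among them, with 129, 150, 141 and 147 CPM in total RNA, at least 289-fold lower in the labelled pool. GPX4, the peroxidase that protects cells from ferroptosis, was another, with 72.7, 76.7, 90.5 and 91.2 CPM, at least 170.2-fold lower. The part of GC content in these zeros was not tested.

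The labelled to total ratios were similar in both lines. Across the 21863 genes the ratios of A375 and A375/211 correlated at r = 0.818 (Spearman's rho 0.831), with no library in common, and 86.0% had the same sign. By edgeR's test of the line by pool interaction 0 genes passed (0% called), 2332 had an unadjusted p under 0.05, and the smallest adjusted p was 0.193. This test has 2 residual degrees of freedom, all from total RNA libraries. DESeq2 called 246 of 15929 genes (1.54%), 146 with the higher ratio in A375/211 and 100 in A375. The genes with the smallest p in edgeR included near-identical copies, whose values switch between 0 and a high level. NOTCH2NLA, a member of a recently duplicated NOTCH family, was at 0 and 118 CPM in labelled A375 and A375/211 RNA, against 28.6, 29.4, 31.9 and 45 CPM in the total RNA libraries. SRGAP2C, likewise a recent duplicate, was at 0 and 112 CPM in labelled A375 and A375/211 RNA, against 39.7, 39.6, 43.1 and 49.3 CPM in the total RNA libraries. DENND11 and NRCAM, which are attributable, showed the opposite direction. DENND11 was at 42.1 and 1.61 CPM in labelled A375 and A375/211 RNA, against 30.3, 32.7, 41.7 and 42.6 CPM in the total RNA libraries. NRCAM, a neuronal adhesion molecule, was at 194 and 6.77 CPM in labelled A375 and A375/211 RNA, against 55.8, 42.9, 49 and 43.5 CPM in the total RNA libraries. Their total RNA levels were alike in both lines, and the labelled A375/211 library was below all others. The labelled A375 library was within the total RNA range for DENND11 and above it for NRCAM.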

How the data were processed

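Both tables hold whole-number counts per Ensembl gene as deposited by the authors. Reads were aligned with HISAT2 2.1.0 and quantified with StringTie, per the submitters' processing notes, which name hg19, while the series' design text names hg38. The kit was stranded for both pools, per the labels' protocols. Identifiers were matched to GENCODE 44 (56558 of 60675, 93.2%). A row of the bromouridine table that names no gene was left out. Counts were scaled by TMM and tested with edgeR 4.0.16 (quasi-likelihood, model with line and pool, 3 residual degrees of freedom) on genes that passed filterByExpr by pool (minimum count 10, minimum total 15), after a check on simulated data, with Benjamini-Hochberg adjustment over all genes tested. DESeq2 1.42.0 was an alternative. Each SE given is the absolute log2 difference divided by the square root of edgeR's F statistic, and not a standard error from the fit. With 2 against 4 libraries an exact permutation test of 1 gene could not go below p = 0.0667. Genes named by rule had an average log2 CPM of at least 5, an adjusted p under 0.05 and no overlap between pools, 10 mRNAs and 5 other RNAs per direction, besides up to 3 members per list by smallest p and a fixed set. Others, among them attributable genes and the p53, mitochondrial, ribozyme and antisense examples, were chosen after their values were seen. A gene that the rule selects is not reported here. The members and lists were chosen with earlier results of these data known. The floor for a count of 0 is 3 counts over the group and covers counting error only.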

Additional observations from a re-analysis of the deposited data

How the results depend on the processing

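In the labelled libraries, the shallower ones, 1 count is worth 0.322 to 0.337 CPM. The number of genes passing between labelled and total RNA, 13860, stayed within 1.5 times under 3 other scalings, DESeq2, no count filter and thinned total RNA. It was 8780 of 12799 tested with a mean CPM of at least 5 and 5214 of 8890 for attributable genes only (chosen after seeing the data), where fewer genes were tested. Leaving out 1 library gave 10470 to 13331. The higher share of the calls, 45.4%, ranged from 39.6% without labelled A375/211 RNA to 53.7% with protein-coding totals as scaling. A fit with the letters a and b as a replicate block gave 13594 passing genes. The letters correlated at r = 0.226, and with 2 pairs and no label that ties them they were not taken as pairs. With the block MYC passed (log2 difference 1.56, adjusted p = 0.00843). For the line difference 0 genes passed in every edgeR setting, and DESeq2 gave 246. The cause was not tested. A labelled library could not be left out of that test, since each line has 1.

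Of 144 called genes, 143 kept call and direction in the scaling, tool, filter, depth and block alternatives, and 0 changed direction in any alternative. These genes were listed by rule or added after their values were seen, most for passing or extreme differences in these same libraries. Keeping the call was therefore largely set by that choice. ACTB lost the call in some of these alternatives. HMGA2, RMEL3 and LINC01029 lost it only in fits with 1 labelled library, HMGA2 with a log2 difference of 1.32 without labelled A375/211 RNA. Changes of sign occurred at 2 genes that did not pass with all libraries and passed in some alternatives. DUSP3 ranged from -1.58 (adjusted p = 0.0160) to 1.33 (adjusted p = 0.0207) when 1 library was left out and was at -0.070 with no count filter, -0.02 and -0.27 without the 2 A375/211 total RNA libraries in turn and -1.50 in A375 alone against 1.39 in A375/211 alone. MITF ranged from -2.06 to 0.53 when 1 library was left out and was at 0.59 in A375/211 alone.

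Shares of counts were recomputed without mitochondrially encoded RNA. The log2 ratio of labelled over total share then moved from -0.09 to 0.23 for nuclear protein-coding genes, from -1.39 to -1.07 for processed pseudogenes, from -5.64 to -5.32 for snoRNAs, from -4.22 to -3.90 for snRNAs and from -7.81 to -7.49 for 7SL, which follows from the smaller denominator. Without the 20 genes of highest mean CPM it was -0.0069 for nuclear protein-coding genes, -4.14 for snRNAs and -5.03 for 7SL.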

Other observations

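Extracellular matrix genes spread widely in the labelled pool. Of 23 tested, 3 were higher and 7 were lower (median log2 difference -0.74), beside 28.8% higher and 34.6% lower over all genes tested. COL4A2, a chain of basement membrane collagen, was at 32.7 and 33.2 CPM in labelled A375 and A375/211 RNA, against 613, 536, 455 and 440.4 CPM in the total RNA libraries (log2 difference -3.94, SE 0.21, adjusted p = 0.000115). COL6A1, a chain of the microfibrillar collagen VI, was at 12.5 and 4.51 CPM in labelled A375 and A375/211 RNA, against 153, 151, 64.2 and 61.5 CPM in the total RNA libraries (log2 difference -3.69, SE 0.20, adjusted p = 0.000115). VCAN, a large proteoglycan, was higher at 102 and 35.4 CPM in labelled A375 and A375/211 RNA, against 5.46, 6.4, 3.68 and 10.9 CPM in the total RNA libraries (log2 difference 3.29, SE 0.57, adjusted p = 0.00352). The GC content was 61.8% for COL4A2, 63.5% for COL6A1 and 42.5% for VCAN. It was 60.2% for COL5A1, the highest member of this list with a log2 difference of 8.35.

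Heat shock and chaperonin genes had 1 higher and 12 lower of 17 (median -1.35), beside 28.8% higher and 34.6% lower over all genes tested. HSPA8, the constitutive HSP70, was at 527 and 629 CPM in labelled A375 and A375/211 RNA, against 1351, 1688, 1795 and 1706 CPM in the total RNA libraries (log2 difference -1.50, SE 0.17, adjusted p = 0.000815), with no overlap between the pools. HSPH1 was the 1 member that was higher, at 0.60. Interferon response genes had 0 higher and 13 lower of 25 (median -1.27), among them IFITM3, a restriction factor of virus entry, at 9.77 and 10.6 CPM in labelled A375 and A375/211 RNA, against 96.6, 81.8, 96.4 and 82.8 CPM in the total RNA libraries (log2 difference -3.13, SE 0.21, adjusted p = 0.000179).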
